A study of Rattus norvegicus with 20 samples.

Results

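The surface markers Thy1, Cd44, Nt5e and Itgb1, which encode CD90, CD44, CD73 and CD29, were followed across all 8 culture groups of rat bone marrow mesenchymal stromal cells (MSCs). They are 4 of the 30560 genes in the count table and were chosen by their Ensembl identifiers, ENSRNOG00000006604, ENSRNOG00000006094, ENSRNOG00000011071 and ENSRNOG00000010966 in that order. The symbols come with this choice, since 0 identifiers of the table could be paired with symbols here. All 4 were among the 14034 genes that passed the filter on low counts.

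The study asked how the stiffness of the culture surface, and the memory of an earlier surface, shape gene expression in MSCs of female Wistar rats, and this was measured by bulk RNA-seq in 20 libraries. MSCs were grown on gelatin-coated silicone of 2 kPa (soft) or 100 kPa (stiff) for 1 week (1w2 and 1w100, n = 3 each), 3 weeks (3w2 and 3w100, n = 3 each) or 5 weeks (5w2 and 5w100, n = 2 each). In 2 further groups the surface was switched after 3 weeks for the last 2 weeks, from soft to stiff (3w2→2w100, n = 2) or from stiff to soft (3w100→2w2, n = 2). Cells of all groups were passaged weekly in α-MEM with serum, and no group received another agent. The study's methods describe an enrichment with magnetic beads against CD54 and CD90 after the first passage, so the protein of Thy1 was used to select cells. They do not say whether the 1-week libraries were taken before or after this step. The methods give replicates as cells of different rats but do not say that a replicate number marks one rat, and p-values measure the spread between these libraries. Other markers that define MSCs, and markers of other marrow cells, could not be looked up without symbols. All 4 genes were detected in every library, with at least 99 counts, but this alone does not test the labelled cell type.

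MSCs are recognised in culture by a panel of surface proteins that these genes encode. Thy1 is a small glycoprotein held in the membrane by a lipid anchor, which binds integrins on neighbouring cells. Cd44 is the main receptor for hyaluronan, a sugar polymer of the extracellular matrix. Itgb1 is the beta subunit that joins many alpha subunits to form receptors for collagen, fibronectin and laminin, and it is part of the adhesions through which cells pull on a surface. Nt5e is an enzyme of the outer cell surface that converts AMP to adenosine, a signal that dampens inflammation.

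The levels of Cd44 and Itgb1 ran together across the libraries (Pearson r = 0.83, n = 20), and their promoters are therefore shown. They are the 250 bases before the annotated start, 5′ to 3′ on the gene's strand, from RefSeq on build GRCr8, which is not the build used for the counts. Of the 4 genes, 3 had an entry. The Cd44 promoter lies at chr3:109699425-109699674 on the minus strand and the Itgb1 promoter at chr19:73602027-73602276 on the plus strand. Capitals mark matches to the motifs named after the sequences.
Cd44: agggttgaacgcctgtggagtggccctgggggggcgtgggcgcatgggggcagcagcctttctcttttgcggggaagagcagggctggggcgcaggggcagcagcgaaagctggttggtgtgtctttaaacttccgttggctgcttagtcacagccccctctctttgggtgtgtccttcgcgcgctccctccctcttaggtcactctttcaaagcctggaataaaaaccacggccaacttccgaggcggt
Itgb1: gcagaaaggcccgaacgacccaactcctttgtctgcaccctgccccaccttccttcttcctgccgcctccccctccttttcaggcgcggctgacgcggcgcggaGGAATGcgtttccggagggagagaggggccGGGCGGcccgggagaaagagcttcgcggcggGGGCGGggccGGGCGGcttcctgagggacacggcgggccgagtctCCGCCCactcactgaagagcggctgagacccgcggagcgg
Both strands were searched for 6 motifs. The Itgb1 promoter held 4 matches to the letters of a GC box, GGGCGG, which occurred in 30.5% of 33469 rat promoters of this length. It held 1 match to the TEAD motif, CATTCC, on the opposite strand at positions -146 to -141 from the start, and this motif occurred in 12.1% of promoters. The other motifs were not found in either promoter. They were the AP-1 motif, TGANTCA, present in 6.34% of promoters, the core of the TATA box, TATAAA, present in 12.9%, the short motif that names the CCAAT box, present in 34.0%, and the motif of GATA factors, GATAAG, present in 6.18%. The Cd44 promoter held none of the 6. No matches of different motifs overlapped. The share of G and C was 60.8% for Cd44 and 71.2% for Itgb1, above the median promoter at 51.2%. The Nt5e promoter, which is not shown, held 3 matches, all to the GC box, and 68.8% G and C. These matches describe letters and do not show that a factor binds there. Whether they relate to the shared levels of Cd44 and Itgb1 was not tested.

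Levels are given in CPM, counts scaled to a common library size, after scaling by edgeR's TMM method, which corrects for library size and composition. The libraries held 16127907 to 24139128 counts on genes, with a median of 18716923. CPM does not correct for transcript length, so levels are compared within a gene and not between genes. Thy1 had 13940 to 39194 counts per library, Cd44 4381 to 11418, Itgb1 33914 to 78682 and Nt5e 99 to 902, so that counting error was largest for Nt5e. In bulk RNA, fewer cells that express a gene and less of its RNA per cell cannot be told apart.

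Cd44 was highest in MSCs whose first surface was soft, from 3 weeks on. Its mean was 459 ± 47.1 CPM (SD, n = 2) in 5w2. The means of 3w2→2w100 and 3w2 were 456 ± 40.7 (SD, n = 2) and 407 ± 55.7 (SD, n = 3). The other 5 groups lay lower, at 337 ± 69.1 (SD, n = 3) in 1w100, 329.7 ± 18.4 (SD, n = 2) in 5w100, 319.6 ± 10.9 (SD, n = 3) in 3w100, 311 ± 8.48 (SD, n = 2) in 3w100→2w2 and 308 ± 69.6 (SD, n = 3) in 1w2. The step from 3w2 to 1w100 was the only one of the 7 steps between neighbours in this order that exceeded the larger SD of the 2 groups. The highest group stood 1.49-fold above the lowest.

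Itgb1 had a similar order, again led by the groups whose first surface was soft for at least 3 weeks. Its mean was 3105 ± 213 CPM (SD, n = 3) in 3w2. The means of 3w2→2w100 and 5w2 were 3084 ± 431 (SD, n = 2) and 2989 ± 575 (SD, n = 2). It was 2509 ± 162 (SD, n = 3) in 3w100, 2296 ± 535 (SD, n = 2) in 5w100, 2267 ± 477 (SD, n = 2) in 3w100→2w2, 2241 ± 321 (SD, n = 3) in 1w100 and 2218 ± 301 (SD, n = 3) in 1w2. None of the 7 steps between neighbours exceeded the larger SD, while the ends of the order were 1.40-fold apart.

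Thy1, whose protein was used in the enrichment, ran in the opposite order. Its mean was highest in 5w100, at 1733 ± 600.2 CPM (SD, n = 2), and in 3w100→2w2, at 1650.5 ± 284 (SD, n = 2). The 1-week groups followed, with 1586 ± 109 (SD, n = 3) in 1w100 and 1565 ± 151 (SD, n = 3) in 1w2, and then 3w100 with 1479 ± 144 (SD, n = 3). The lowest means belonged to the 3 groups whose first surface was soft for at least 3 weeks, and these were 1279 ± 617 (SD, n = 2) for 3w2→2w100, 1221 ± 243 (SD, n = 3) for 3w2 and 1171 ± 407 (SD, n = 2) for 5w2. The ends were 1.48-fold apart, none of the 7 steps between neighbours exceeded the larger SD, and with plain library totals in place of TMM the 1-week groups came first.

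Nt5e was highest at 1 week and spread most between replicates. It was at 33.7 ± 7.02 CPM (SD, n = 3) in 1w100 and 25.9 ± 3.71 (SD, n = 3) in 1w2. The other 6 groups lay between those of 5w2, 13.6 ± 5.61 (SD, n = 2), and of 3w2, 16.7 ± 5.48 (SD, n = 3), with no step between neighbours above the larger SD. The SD of log2 CPM within groups was 0.77 for Nt5e, larger than for 91.0% of the genes tested, against 0.34 for Thy1, 0.21 for Itgb1 and 0.20 for Cd44. The median gene had 0.23.

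**Figure D1:**
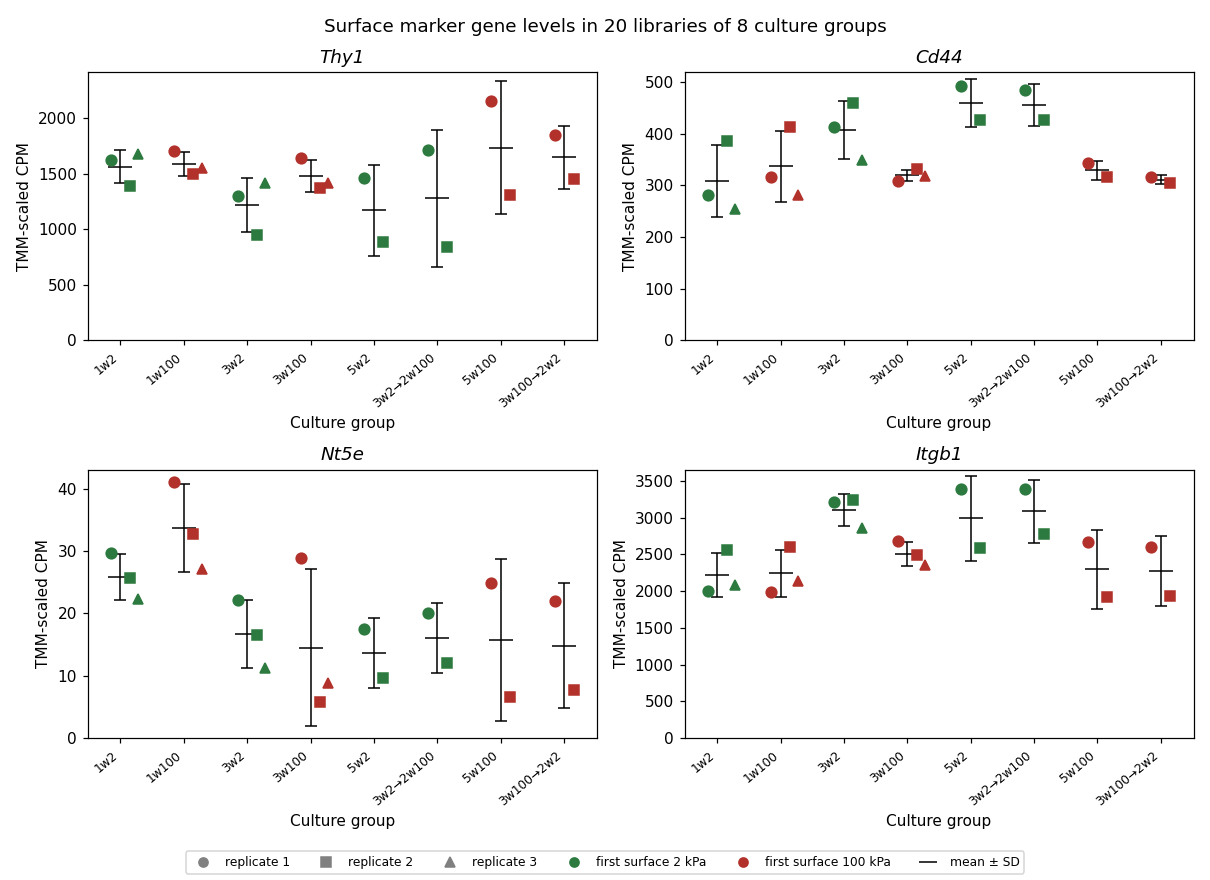
Level of each gene in TMM-scaled CPM (y axis, from 0) in the 20 libraries of 8 culture groups (x axis). Points are libraries, shaped by replicate number and coloured by the first surface, and black bars are the mean ± SD. Cd44 in the 4 libraries of 5w2 and 3w2→2w100 sits at 426 to 493 CPM, above the 4 libraries of 5w100 and 3w100→2w2 at 305 to 343.

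The priming surface, that of the first 3 weeks, was compared over the groups of 5 weeks, 4 soft-primed (5w2 and 3w2→2w100) against 4 stiff-primed libraries (5w100 and 3w100→2w2). Cd44 was at 493 and 426 CPM in 5w2, and at 485 and 427 in 3w2→2w100. It was at 343 and 317 CPM in 5w100, and at 317 and 305 in 3w100→2w2. Every soft-primed library thus lay above every stiff-primed one, as did those of 8.66% of all genes tested. Cd44 was higher by 0.52 on the log2 scale in soft-primed MSCs (SE 0.14, edgeR adjusted p = 0.0315), a 1.43-fold difference. It was 1 of 4 markers called, while 9.75% of all genes were called, 3.11% as higher in soft-primed and 6.64% as higher in stiff-primed MSCs. The call was lost, with adjusted p up to 0.124, without either 5w2 library, 5w100 replicate 2, 3w2→2w100 replicate 1 or 3w100→2w2 replicate 2, although the log2 difference stayed between 0.46 and 0.57 without each of the 8 libraries. Kept and switched cultures of one number may descend from one primed culture, so the 4 libraries of a side may not be independent. In the check of pairing described under processing, same-numbered libraries had r = 0.76 between 5w2 and 3w2→2w100. It was 0.80 between 5w100 and 3w100→2w2, against 0.17 to 0.25 between 5-week groups of different priming. With kept and switched cultures of one number summed, 2 against 2, Cd44 had an edgeR adjusted p of 0.248.

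Itgb1, the integrin subunit, was at 3396 and 2582 CPM in 5w2 and at 3388 and 2779 in 3w2→2w100. The stiff-primed libraries had 2674 and 1918 CPM in 5w100, and 2604 and 1930 in 3w100→2w2. The ranges overlapped, with the lowest soft-primed library below the 2 highest stiff-primed ones. The log2 difference was 0.41 (SE 0.15, edgeR adjusted p = 0.096), which did not pass. DESeq2, which called 13.5% of genes here, gave 0.41 with an adjusted p of 0.0408, and edgeR without 5w100 replicate 1 gave 0.54 with 0.0367.

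Thy1 was at 1459 and 883 CPM in 5w2, and at 1715 and 843 in 3w2→2w100. In the stiff-primed libraries it was at 2158 and 1309 in 5w100, and at 1851 and 1449.95 in 3w100→2w2. In both primings the first replicate was the high one, so the ranges overlapped. The log2 difference was -0.47 (SE 0.22, edgeR adjusted p = 0.205) and was not called. With the replicate number as a block, which compares libraries of the same number, it was -0.49 (SE 0.14, edgeR adjusted p = 0.0291). Thy1 then passed as lower in soft-primed MSCs, as did 9.93% of all genes in that direction. This block was fitted over all 8 groups, where 50 of 62 correlations of same-numbered libraries exceeded 0.1. The pairing met at 5 weeks alone does not justify that fit. With the block on only the groups compared, the difference was -0.50 (edgeR adjusted p = 0.0471). With kept and switched cultures of one number summed, Thy1 was not called, with or without the block. With the block over all 8 groups and 1 of the 8 libraries left out, Thy1 passed in 3 of 8 cases, with adjusted p between 0.0116 and 0.128.

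Nt5e was at 17.6 and 9.63 CPM in 5w2, and at 20.03 and 12.1 in 3w2→2w100. It was at 24.95 and 6.57 CPM in 5w100, and at 21.9 and 7.74 in 3w100→2w2. The soft-primed libraries lay inside the range of the stiff-primed ones. The log2 difference was -0.05, with a 95% interval from -1.10 to 1.01 and an edgeR adjusted p of 0.973. The interval still allows a change of up to about that size in either direction.

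The current surface, that of the last 2 weeks, was compared over the same 8 libraries, and 0 of the 4 markers and 0% of all genes passed edgeR's adjusted threshold. Without adjustment, 114 genes (0.812%) and none of the markers had a p below 0.05 in edgeR, and DESeq2 called 0 genes. This share is smaller than a threshold of 0.05 gives when no gene differs. The fit had no block, so its intervals hold the spread between replicate numbers. With the block over all 8 groups, 164 genes (1.17%) had an unadjusted p below 0.05 in edgeR and 0 were called. The 0 calls therefore do not show that no gene differs. Libraries that ended on soft surfaces differed from those that ended on stiff ones by -0.04 on the log2 scale for Cd44 (95% interval -0.33 to 0.26) and by -0.03 for Itgb1 (-0.35 to 0.29). The differences were -0.10 for Thy1 (-0.58 to 0.38) and -0.16 for Nt5e (-1.22 to 0.89). Switched against kept cultures gave 0 calls as well, for the markers and for all genes, in each priming. Here 0.371% (soft-primed) and 0.620% (stiff-primed) of genes had an unadjusted p below 0.05 in edgeR. From 5w2 to 3w2→2w100 the log2 difference was -0.01 for Cd44 (-0.43 to 0.41), 0.04 for Itgb1 (-0.41 to 0.50), 0.13 for Thy1 (-0.55 to 0.80) and 0.24 for Nt5e (-1.25 to 1.73). From 5w100 to 3w100→2w2 it was -0.08 for Cd44 (-0.50 to 0.33), -0.02 for Itgb1 (-0.47 to 0.44), -0.07 for Thy1 (-0.75 to 0.61) and -0.08 for Nt5e (-1.58 to 1.41). All 12 differences had edgeR adjusted p values that round to 1. The intervals still allow changes of the size seen between primings for Thy1 and Nt5e. For Cd44 over all 8 libraries the interval of the current surface ended at 0.26, and the difference between primings was 0.52 (SE 0.14). These 2 effects were not tested against each other, and both count kept and switched cultures of one number as separate libraries.

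Cells with different primings were also set side by side on one surface. On stiff surfaces, 3w2→2w100 exceeded 5w100 by 0.47 on the log2 scale for Cd44 (SE 0.20, edgeR adjusted p = 0.300) and by 0.43 for Itgb1 (SE 0.21, adjusted p = 0.390), and Thy1 differed by -0.44 (SE 0.32, adjusted p = 0.572). On soft surfaces, 3w100→2w2 differed from 5w2 by -0.56 for Cd44 (SE 0.20, edgeR adjusted p = 0.208), by -0.40 for Itgb1 (SE 0.21, adjusted p = 0.436) and by 0.50 for Thy1 (SE 0.32, adjusted p = 0.530). Nt5e differed by 0.03 and 0.12 in these comparisons. None of the 4 markers passed in either, where 0.0570% and 0.178% of all genes were called. The Cd44 libraries did not overlap in either comparison and those of Itgb1 did not on stiff surfaces, as for 36.1% of all genes on stiff and 44.1% on soft surfaces.

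**Figure D2:**
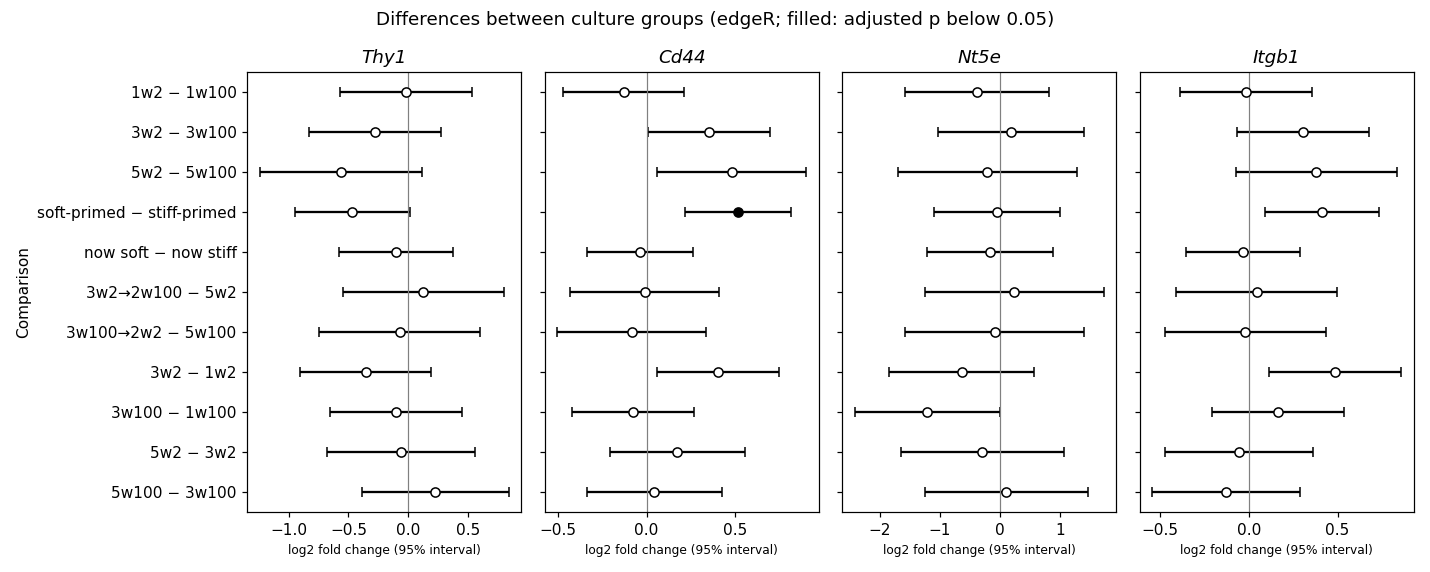
Log2 fold change (x axis) with its 95% interval for each gene in 11 comparisons (y axis), from edgeR's model over 20 libraries. Filled points have an adjusted p below 0.05, and only Cd44 between primings, at 0.52, is filled. Scales of the x axes differ between genes.

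The stiffness comparison asked how cells kept on soft surfaces differed from those kept on stiff surfaces for the same time. After 1 week none of the markers passed. Cd44 was at 282, 387 and 255 CPM in 1w2 and at 315, 414 and 281 in 1w100, a log2 difference of -0.13 (SE 0.16). Itgb1 was at 2006, 2562 and 2087 in 1w2 and at 1988, 2602 and 2134 in 1w100, a log2 difference of -0.01 (SE 0.17). These libraries overlapped and ran in parallel by replicate number. Thy1 was at 1627, 1393 and 1674 in 1w2 and at 1708, 1499 and 1551 in 1w100, a log2 difference of -0.02 (SE 0.26). Nt5e was at 29.7, 25.6 and 22.3 CPM in 1w2 and at 41.1, 32.7 and 27.2 in 1w100. Its log2 difference was -0.38 (SE 0.56), with a wide 95% interval from -1.57 to 0.81. All 4 adjusted p values of edgeR were 1. No gene of the 14034 was called at 1 week by edgeR or DESeq2. In edgeR 54 genes (0.385%) had an unadjusted p below 0.05, and 107 (0.762%) with the replicate block, where again 0 were called. Same-numbered libraries had r from 0.63 to 0.78 at 1 week in the check of pairing described under processing. The fit without the block put this shared spread into its SEs.

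After 3 weeks none of the markers passed, although the libraries of the 2 adhesion receptors no longer overlapped between surfaces. Cd44 was at 414, 459.7 and 349 CPM in 3w2, above the 309, 331 and 318 in 3w100. The log2 difference was 0.35 (SE 0.16), with an unadjusted p of 0.0456 and an adjusted p of 0.806 in edgeR's model. Itgb1 was at 3216, 3239 and 2859.5 CPM in 3w2, above the 2678, 2494 and 2356 in 3w100, a log2 difference of 0.31 (SE 0.17, edgeR adjusted p = 0.831). The groups of both genes did not overlap, as for 14.5% of all genes. Thy1 was at 1296, 949.7 and 1418 CPM in 3w2 and at 1644, 1374 and 1421 in 3w100, a log2 difference of -0.28 (SE 0.26, edgeR adjusted p = 0.897). Its ranges overlapped in part, with the lowest 2 libraries both from 3w2. Nt5e was at 22.2, 16.5 and 11.3 CPM in 3w2 and at 28.9, 5.72 and 8.91 in 3w100, where 1 library stood far above the others. Its log2 difference was 0.19 (SE 0.57, edgeR adjusted p = 0.967). edgeR called 0% of all genes at 3 weeks, while 863 genes had an unadjusted p under 0.05, and DESeq2 called 0.0812%, none of them a marker.

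Between 5w2 and 5w100, edgeR called 0.264% of all genes and none of the markers. DESeq2 called 4.13% of genes and edgeR with the replicate number as a block 3.55%, again with none of the markers. The log2 differences were 0.48 for Cd44 (SE 0.20, adjusted p = 0.258), 0.38 for Itgb1 (SE 0.21, adjusted p = 0.421), -0.57 for Thy1 (SE 0.32, adjusted p = 0.423) and -0.21 for Nt5e (SE 0.70, adjusted p = 0.922). Cd44 was the 1 marker whose libraries did not overlap, as for 43.1% of all genes. The change of the stiffness effect with time was tested as an interaction and edgeR called 0 of the 4 markers. Between 1 and 5 weeks it called 0% of all genes, against 0.221% with DESeq2 and 0.00713% with edgeR and the block, neither of which called a marker. This change was largest for Cd44, at 0.61 (SE 0.25), with an unadjusted p of 0.030 and an adjusted p of 0.644 in edgeR's model. It was 0.40 for Itgb1 (SE 0.27), -0.55 for Thy1 (SE 0.41) and 0.17 for Nt5e (SE 0.89). The 1-week and 5-week effects themselves share no library.

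Soft- and stiff-primed libraries of the same replicate number gave 7 pairs at 3 and 5 weeks, which may share rats or cultures between times and are given as a description. In the check of pairing described under processing, the criterion was met at 5 weeks but not at 3 weeks. Cd44 was higher in the soft-primed library of 7 of 7 pairs, by 0.13 to 0.61 on the log2 scale. Itgb1 was also higher in 7 of 7, by 0.26 to 0.53, and 8.22% of all genes were higher in all 7. Thy1 was lower in 7 of 7, with differences from -0.78 to -0.003, and 9.25% of all genes were lower in all 7. Nt5e was higher in 4 and lower in 3. At 1 week, Cd44 was lower in the soft library of each of the 3 pairs, with differences from -0.16 to -0.10, and so was Nt5e, with differences from -0.47 to -0.29, as were 15.3% of all genes, and neither was called at 1 week.

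**Figure D3:**
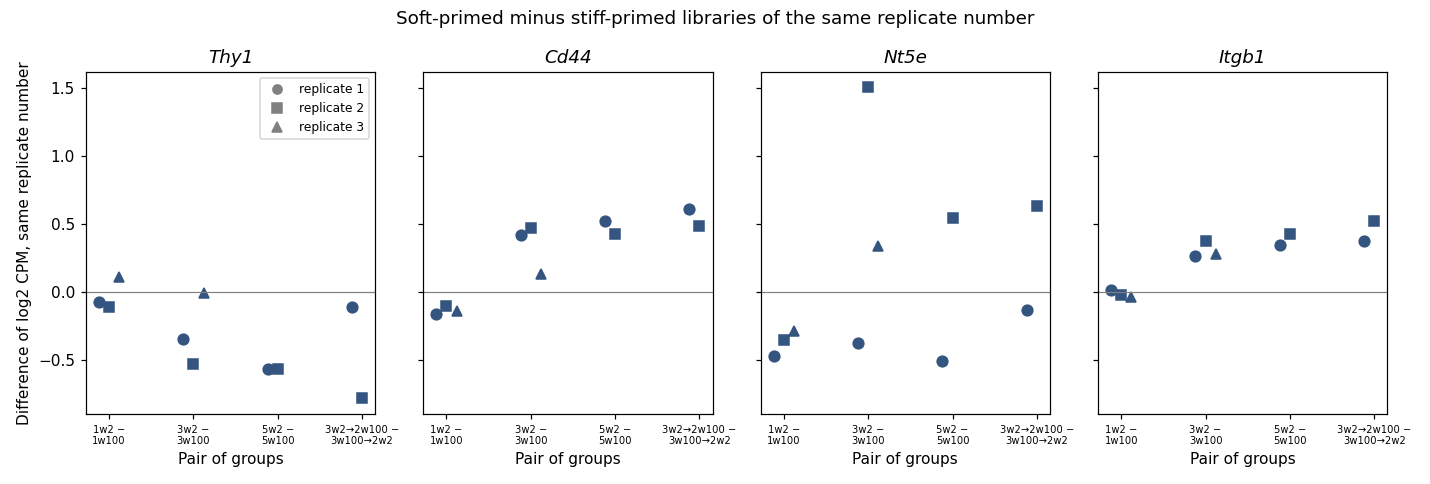
Difference in log2 CPM (y axis) between the soft-primed and the stiff-primed library of the same replicate number, for 4 pairs of groups (x axis). Each point is 1 pair of libraries, shaped by replicate number. Cd44 and Itgb1 lie above 0 and Thy1 below 0 in all 7 pairs at 3 and 5 weeks, and Nt5e lies on both sides.

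Time in culture was compared from 1 to 3 weeks, where edgeR called 20.9% of all genes over both surfaces, 8.03% on soft and 8.41% on stiff ones, and none of the 4 markers in any of these when fitted without the replicate block. Itgb1 was at 1988 to 2602 CPM in the 6 libraries of 1 week and at 2356 to 3239 at 3 weeks. Its log2 difference was 0.32 (SE 0.12, edgeR adjusted p = 0.0761). On soft surfaces, where every 3-week library exceeded every 1-week library, as for 14.3% of genes, it was 0.49 (SE 0.17, edgeR adjusted p = 0.106), against 0.16 on stiff surfaces (SE 0.17, edgeR adjusted p = 0.630). DESeq2, which called 21.1% of genes over both surfaces and 9.78% on soft ones, gave adjusted p values of 0.0436 and 0.0498 for Itgb1. Fitted on only the 1- and 3-week groups, edgeR gave 0.0416 over both.

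Nt5e went the other way, from 22.3 to 41.1 CPM at 1 week to 5.72 to 28.9 at 3 weeks. On soft surfaces the 3 later libraries, at 11.3 to 22.2, lay just below the 3 earlier ones, at 22.3 to 29.7, as for 14.2% of genes. On stiff surfaces 2 libraries at 3 weeks, at 5.72 and 8.91, were below all of those at 1 week, and replicate 1, at 28.9, was within their range. The log2 difference was -0.92 over both surfaces (SE 0.40, edgeR adjusted p = 0.120), -0.63 on soft (SE 0.57, adjusted p = 0.571) and -1.21 on stiff surfaces (SE 0.57, adjusted p = 0.224). Without 3w100 replicate 1 it was -1.42 over both surfaces (edgeR adjusted p = 0.0147) and -2.20 on stiff ones (adjusted p = 0.0342). Same-numbered libraries met the criterion for pairing between 1w100 and 3w100, with r from 0.114 to 0.349. A block on this number was fitted over all 8 groups, however, where 50 of 62 such correlations exceeded 0.1. The pairing of 1w100 and 3w100 alone therefore does not justify that fit. It gave a difference on stiff surfaces of -1.44 (SE 0.34, edgeR adjusted p = 0.0139). Nt5e then passed as lower at 3 weeks, as did 6.64% of all genes. That call held in 3 of 6 cases with 1 library left out, with adjusted p up to 0.0597.

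Cd44 differed between 1 and 3 weeks by 0.40 on soft surfaces (SE 0.16, edgeR adjusted p = 0.147) and by -0.08 on stiff surfaces (SE 0.16, adjusted p = 0.832). Without 1w2 replicate 2, the highest Cd44 library of its group, the soft value was 0.60 with an edgeR adjusted p of 0.0307. Thy1 differed by -0.36 on soft (SE 0.26, edgeR adjusted p = 0.466) and by -0.10 on stiff surfaces (SE 0.26, adjusted p = 0.864). From 3 to 5 weeks on one surface the log2 differences of all 4 genes lay between -0.29 (Nt5e on soft) and 0.23 (Thy1 on stiff surfaces), and edgeR's adjusted p values were 0.772 or more. edgeR called 0 genes on either surface there, 0% of those tested, while 1315 on soft and 889 on stiff surfaces had an unadjusted p under 0.05, and DESeq2 called 110 and 17 genes.

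Thy1 and Nt5e also differed between replicate numbers, a comparison added after the values were seen. In 8 of 8 groups the library of replicate 2 was below that of replicate 1 for Thy1, at 49.1% to 87.7% of it, and for Nt5e, at 19.8% to 86.3%. Of all genes tested, 4.50% were lower in replicate 2 in all 8 groups. In the model with the replicate number as a block, replicate 2 differed from replicate 1 by -0.49 for Thy1 (edgeR adjusted p = 0.0103) and by -1.02 for Nt5e (edgeR adjusted p = 0.0116), where 4.95% of all genes were called lower. Both stayed called without each of the 20 libraries. Cd44 differed by 0.07 and Itgb1 by -0.12, without a call, but these values average over opposite signs. Replicate 2 was above replicate 1 for Cd44 in every group of 1 and 3 weeks, by 0.10 to 0.45. It was below replicate 1 in every 5-week group, with differences from -0.21 to -0.06. For Itgb1 the differences were 0.35 and 0.39 at 1 week, 0.01 and -0.10 at 3 weeks, and -0.48 to -0.29 in the 5-week groups. If libraries of one number share a rat or a culture, they are not independent, and the p-values of this comparison do not measure a spread between rats. Libraries of replicate 3, present at 1 and 3 weeks, were below replicate 1 for Nt5e in 4 of 4 groups, at 30.8% to 75.04%, with a log2 difference of -1.08 in the model (edgeR adjusted p = 0.0729), and for Thy1 in 2 of 4. The replicate number carried 71.6% of the squared deviations from the group means for Thy1 and 69.1% for Nt5e, against 42.1% for Cd44, 19.5% for Itgb1 and 29.2% for the median gene. The labels do not say what a replicate number stands for, and its part in these differences was not tested.

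**Figure D4:**
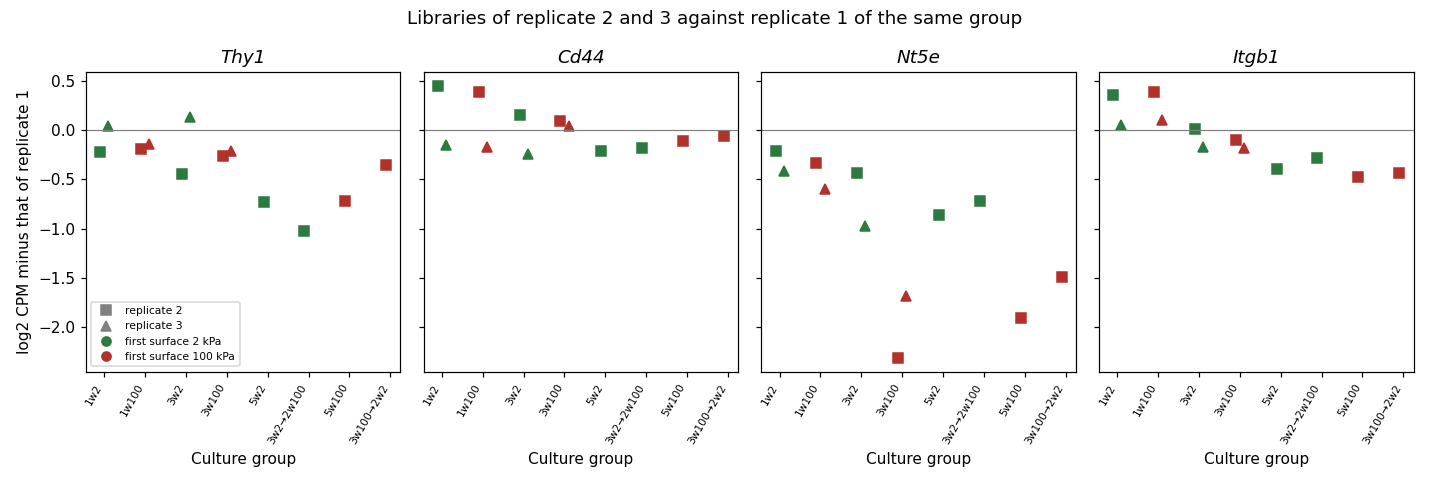
Log2 CPM of replicates 2 and 3 minus that of replicate 1 of the same group (y axis) in each culture group (x axis). Points are libraries, shaped by replicate number and coloured by first surface. All 8 squares of replicate 2 are below 0 for Thy1 and Nt5e, and squares lie on both sides for Cd44 and Itgb1.

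Across the 20 libraries, log2 CPM of Cd44 and Itgb1 had a Pearson r of 0.83, the largest among the 6 pairs of markers. Over the 8 group means it was 0.92, and over deviations from the group means 0.69. Thy1 and Cd44 had r of -0.47 over libraries, -0.93 over group means and -0.02 over deviations. Thy1 and Itgb1 had -0.22, -0.96 and 0.51, so that their group means ran opposite while the pooled deviations ran together. This did not hold in every group. In 1w2, 1w100 and 3w2, replicate 2 was the lowest for Thy1 and the highest for Itgb1. Thy1 and Nt5e had 0.47 over libraries and 0.61 over deviations. These are descriptions without a test, since all values of a library share its scaling and libraries of one number may share a rat.

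Within a library the ratio of counts does not depend on scaling. There were 41.0 ± 10.2 Cd44 counts per 100 Thy1 counts in 5w2 (SD, n = 2), while 3w2→2w100 had 39.5 ± 15.9 (SD, n = 2) and 3w2 had 35.0 ± 12.2 (SD, n = 3). The means of the other 5 groups lay between 19.1 in 3w100→2w2 and 21.8 in 3w100. The lowest library of these 3 soft-primed groups, at 24.6, was below the highest of the other groups, at 27.8 in 1w2. Itgb1 counts per Cd44 count stayed between 6.47 and 7.86 in the group means, and between 6.06 and 8.65 in single libraries.

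Genes whose log2 CPM over the 20 libraries was most like that of a marker were taken by Pearson r among the 14034 genes tested. For Cd44 they were ENSRNOG00000005333 (r = 0.909) and ENSRNOG00000006467 (r = 0.888), and for Itgb1 ENSRNOG00000018122 and again ENSRNOG00000005333 (r = 0.914 each). For Thy1 they were ENSRNOG00000018020 (r = 0.910) and ENSRNOG00000005707 (r = 0.908), and for Nt5e ENSRNOG00000008187 (r = 0.903) and ENSRNOG00000005809 (r = 0.9004). The most opposite patterns belonged to ENSRNOG00000017525 (r = -0.930) and ENSRNOG00000002309 (r = -0.925) for Cd44, ENSRNOG00000007764 (r = -0.897) and ENSRNOG00000009289 (r = -0.878) for Itgb1, ENSRNOG00000019525 (r = -0.901) and ENSRNOG00000005615 (r = -0.892) for Thy1, and ENSRNOG00000015162 (r = -0.867) and ENSRNOG00000019426 (r = -0.865) for Nt5e. They were chosen for this likeness, so the r is no finding about them.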

How the data were processed

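Groups and replicate numbers came from the sample labels and group names from the paper. The deposited table holds the authors' raw counts for each Ensembl identifier, made with TrimGalore!, FastQC, HISAT2 on mRatBN7.2 (rn7) and FeatureCounts on the Galaxy EU platform, and ran DESeq2 themselves. The sources used here give no versions, strand setting or rule for multimapping reads, so reads shared with overlapping genes or near-identical copies cannot be separated, and counts per gene do not show isoforms of Cd44. The ATAC-seq libraries were not used here.

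The 4 genes and the lists were chosen with earlier results of these data known. Gene and cell type lists that had been fixed by symbol could not be matched, since 0 of 30560 identifiers paired with a symbol. Named genes were the 4 markers and, for each, the 2 genes of highest and of lowest Pearson r.

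edgeR 4.0.16, run in R 4.3.3, scaled the counts by TMM, filtered them with filterByExpr (minimum count 10, total 15) and fitted all 8 groups together. Its quasi-likelihood test had no block in the primary analysis, with Benjamini-Hochberg adjustment over 14034 genes and calls at an adjusted p below 0.05. Log2 CPM used a prior count of 2. DESeq2 1.42.0 was an alternative, and both tools were tested on simulated data. Pairing was checked by the correlation across genes of same-numbered deviations from group means. This r exceeded 0.1 in 3 of 3 pairs at 1 week, 2 of 3 at 3 weeks and 12 of 12 among the 5-week groups. It did so in 3 of 3 between 1w100 and 3w100 and 2 of 3 between 1w2 and 3w2. Groups of 2 libraries have mirrored deviations, so both numbers of a 5-week pair gave the same r. The 12 are therefore not separate values. The numbers were taken to pair libraries at 1 week, at 5 weeks and between 1w100 and 3w100, from the data and not from the labels. The block itself was fitted over all 8 groups, where 50 of 62 correlations exceeded 0.1. Replicate libraries all differed by more than sampling noise. At most 3 counts are allowed by a count of 0, and intervals cover the spread between libraries.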

Additional observations from a re-analysis of the deposited data

How the results depend on the processing

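The alternatives were DESeq2, scaling by RLE, testing without the low-count filter or with a mean of at least 10 counts, only the groups compared, the replicate number as a block and leaving out each library. A library left alone in its group was taken to vary as the remaining groups do. Added after the values were seen were the block on only the groups compared and sums of same-numbered 5-week libraries of one priming. No called difference changed direction. For the priming surface, 1 of 4 markers was called, against 2 with DESeq2 (Cd44, Itgb1), 2 with the replicate block (Cd44, Thy1), 3 with the block on only the groups compared (Cd44, Thy1, Itgb1), 0 on only the groups compared without it (Cd44 adjusted p = 0.0581) and 0 with summed pairs, with or without the block (Cd44 adjusted p = 0.0989 and 0.248). Leaving out 1 library gave 0 to 2. From 1 to 3 weeks, where 0 were called, 1 was called on soft surfaces with DESeq2 (Itgb1), 1 on stiff surfaces with the replicate block (Nt5e, -1.44, adjusted p = 0.0139), and 1 over both surfaces with DESeq2 (Itgb1), with the block (Nt5e, -1.07, adjusted p = 0.00514) and on only the groups compared (Itgb1). Leaving out 1 library gave 0 to 1 in each of these 3 time comparisons. Between the 1- and 3-week groups of both surfaces, 8 of 12 correlations of same-numbered libraries exceeded 0.1 and 9 of 12 were highest with the same number, so the criterion for pairing was not met there. With this block Nt5e stayed called over both surfaces without each of the 12 libraries. The block changed no other call of the 4 markers. Why these calls differ between fits was not tested. Of 32 group levels, plain library totals moved 2 by more than 1 SD, and RLE factors and thinning to one depth moved 0. Counting error was largest for Nt5e, with 99 counts in its lowest library, and its SD of log2 CPM within groups was 0.77. Groups of 2 libraries limited all comparisons at 5 weeks.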
